A study of Mus musculus with 8 samples.

Results

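Genes of the voltage-gated potassium channels that repolarize heart muscle, namely Kcne1, Kcnq1, Kcnh2, Kcnd2, Kcnd3, Kcnip2, Kcna4 and Kcna5, were followed in RNA sequencing of hearts from male and female mice. They were chosen by symbol from the deposited count table, where all 8 were found among 49315 genes, and all 8 passed the filter on low counts. The study set hearts of male C57BL/6 mice against hearts of female C57BL/6 mice, all aged 8 weeks, with 4 libraries of each sex. C57BL/6 is a standard inbred strain, no treatment or transgene is labelled, and the sexes share the strain and the age. Whether the libraries of a sex are separate animals, and which chambers were sampled, is not in the labels, so p-values measure the spread between these libraries, which may be technical.

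Voltage-gated potassium (Kv) channels open when the membrane depolarizes and let potassium leave the cell, which ends the action potential. In large mammals, the late phase of repolarization rests on the rapid delayed rectifier, whose pore is encoded by Kcnh2, and on the slow delayed rectifier, built from the Kcnq1 pore and the single-pass accessory subunit encoded by Kcne1. Adult mouse ventricle repolarizes faster and depends mainly on the fast transient outward current (pores from Kcnd2 and Kcnd3 with the cytosolic calcium sensor encoded by Kcnip2), on the slow transient outward current (Kcna4) and on slowly inactivating currents, of which Kcna5 encodes a pore.

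Of the 8 genes, 2 were lower in male hearts, Kcne1 at 0.551-fold and Kcnh2 at 0.863-fold of the female level, and 0 were higher (edgeR quasi-likelihood test, male minus female, Benjamini-Hochberg adjusted p below 0.05 over 16180 genes). Across all genes tested, 3.79% were called in either direction 1.76% were called lower in males and 2.03% were called higher in males. Kcna5, 1.41-fold in males over females, had an adjusted p of 0.0539 and did not pass. The median log2 fold change of the 8 genes was -0.11, beside -0.00 over all genes tested, and 6 of the 8 had a negative fold change, beside 50.3% of all genes tested. In 4 of the 8 genes the male and the female libraries did not overlap, in Kcne1, Kcnh2 and Kcna4 with males lower and in Kcna5 with males higher, beside 12.0% of all genes tested in either direction. The share of all genes tested whose libraries did not overlap was 5.66% with males lower and 6.39% with males higher.

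Total counts ran from 39612848 to 47097765 in male libraries and from 32746054 to 35467832 in female libraries, so depth and sex moved together. Expression is given as CPM, the count of a gene scaled to the library's total after TMM adjustment, where 1 count was worth 0.0218 to 0.0302 CPM. All 10 cardiomyocyte markers were detected, with summed levels of 92670 to 102314 CPM in males and 97683 to 98953 CPM in females, and the 5 genes that mark sex fitted the labels of all 8 libraries. Male replicate 4 stood apart in the summed level of 8 atrial markers, among them Myl7, Myl4, Nppa and Sln. Its sum of 496 CPM was 17.5% of the median of the other 7 libraries. The other libraries lay between 2431 and 2868 CPM in males and between 2687 and 2943 CPM in females. Of these markers, Nr2f2 was not apart, at 10.1 to 13.7 CPM in males and 10.9 to 13.5 CPM in females. Male replicate 1 stood apart in the summed level of 8 macrophage and leukocyte markers. It was at 533 CPM beside 284 to 313 CPM in the other males and 239 to 314 CPM in females. Without male replicate 1, the log2 fold changes (male minus female, edgeR) were -0.91 for Kcne1, -0.23 for Kcnh2, -0.12 for Kcnq1, 0.03 for Kcnd2, -0.04 for Kcnd3, -0.11 for Kcnip2, -0.70 for Kcna4 and 0.50 for Kcna5, and Kcne1 and Kcnh2 were called. Without male replicate 4, the log2 fold changes (male minus female, edgeR) were -0.81 for Kcne1, -0.21 for Kcnh2, -0.09 for Kcnq1, 0.03 for Kcnd2, -0.18 for Kcnd3, -0.14 for Kcnip2, -0.39 for Kcna4 and 0.50 for Kcna5, and the same 2 genes were called.

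The start regions of Kcnh2, which was called, and Kcna5, which was not, are shown because these genes had fold changes of opposite sign. Of the 8 genes, 6 matched a window in the RefSeq promoter table (build GRCm38.p6). Kcne1 and Kcnq1 had no window there, so nothing below covers them. The 250 bases before the RefSeq start are printed 5′ to 3′ on the gene's strand. Capitals mark the GC box GGGCGG, searched on both strands. Kcnh2 lies on the minus strand at chr5:24329592-24329841 and Kcna5 on the minus strand at chr6:126535556-126535805.
Kcnh2: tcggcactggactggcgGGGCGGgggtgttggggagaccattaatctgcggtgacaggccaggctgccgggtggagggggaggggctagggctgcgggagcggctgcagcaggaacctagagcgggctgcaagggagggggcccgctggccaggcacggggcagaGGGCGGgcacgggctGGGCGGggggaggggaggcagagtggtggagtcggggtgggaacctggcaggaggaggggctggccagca
Kcna5: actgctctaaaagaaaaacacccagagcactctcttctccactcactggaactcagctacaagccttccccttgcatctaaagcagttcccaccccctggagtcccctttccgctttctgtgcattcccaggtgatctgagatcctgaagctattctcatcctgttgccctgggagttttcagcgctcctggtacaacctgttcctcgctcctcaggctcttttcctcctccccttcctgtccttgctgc
The Kcnh2 window holds 3 GC boxes and is 73.6% G and C, while that of Kcna5 holds 0 and is 53.2% G and C. At least 1 GC box stands in 32.7% of the 32851 promoter windows of this length and in 4 of the 6 windows found here. Kcnip2 held 2 and Kcna4 held 1. Kcnd2, with a log2 fold change of 0.05, held 1, and Kcnd3, with one of -0.11, held 0. A link between GC boxes and the fold changes was not tested. The RefSeq start of Kcnh2 lies 22013 bases inside the gene as deposited, with 0 bases of the window in its deposited exons, and that of Kcna5 lies 143 bases before the deposited start. None of the 6 windows holds the exact palindrome of the androgen and glucocorticoid receptors (in 0.00913% of all windows) or that of the estrogen receptors (in 0.0639%), searched by their full consensus letters. The letters TATAAA (12.4%), TGACGTCA (1.55%) and AGATAA (9.99%) were also searched on both strands and found in 0 of the 6.

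**Figure D1:**
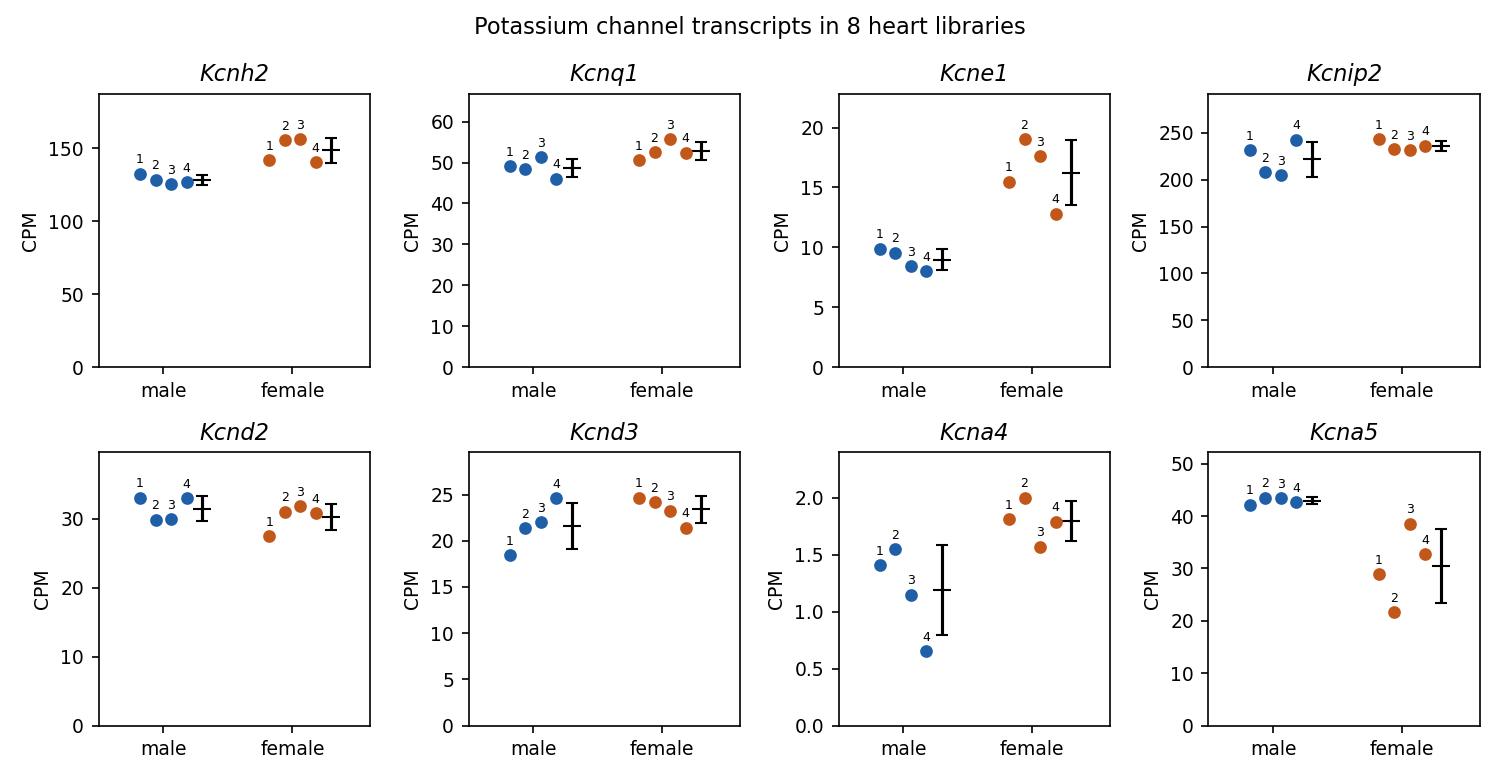
CPM of each gene (vertical axes, from 0) in the 4 male libraries (left, blue) and the 4 female libraries (right, orange), with small digits for the replicate number and black bars for mean and SD. Kcne1 and Kcnh2 are lower in all 4 male libraries than in any female library, and Kcna5 is higher in all 4.

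Kcne1 encodes the small subunit that slows the opening of Kcnq1 channels, and it had the smallest p of the 8 genes. The gene lies on the minus strand of chromosome 16 (GRCm38, 92346001 to 92359468), with 3 separate stretches of exon in the deposited tables. Its level was 9.88, 9.54, 8.41 and 8.01 CPM in male replicates 1 to 4, against 15.5, 19.0, 17.6 and 12.8 CPM in female replicates 1 to 4. Every male library lay below every female library, and the female values were spread more widely than the male ones. The means were 8.96 ± 0.890 CPM in males and 16.2 ± 2.71 CPM in females (SD, n = 4 each), from 359 to 407 counts per male library and 429 to 694 per female library. The log2 fold change was -0.86 (SE 0.12, 95% interval -1.11 to -0.61, edgeR adjusted p = 0.00252). Kcne1 ranked 60 by p among the 16180 genes and 63 by size among the 284 genes called lower in males. With 1 library left out in turn, the call held in 8 of 8 fits, and without male replicate 4 the log2 fold change was -0.81 (edgeR adjusted p = 0.00794).

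Markers of several cell types were set beside the Kcne1 difference. In mice, Kcne1 promoter activity has been described in the conduction system, and of 9 conduction markers, such as Hcn4 and Cacna1g, 8 were tested and 0 were called by edgeR, DESeq2 or limma-voom, with 3 at an unadjusted edgeR p below 0.05 and summed levels of 99.6 to 106 CPM in males and 94.0 to 115 CPM in females. White adipocyte markers moved in the same direction as Kcne1. Of 8, 7 were called lower in males and 0 higher, and 0 of the 8 were at 0 counts in any library. The sum of the 8 was 43.9 to 69.8 CPM in males and 106 to 179 CPM in females. Much of the male sum was Cidea, the 1 not called, at 30.6 ± 2.87 CPM in males and 38.6 ± 7.46 CPM in females. The summed fibroblast markers were 2583 to 2971 CPM in males and 3002 to 3192 CPM in females. Most of this sum was Gsn, at 1936 ± 127 CPM in males and 2072 ± 83.8 CPM in females (edgeR adjusted p = 0.312). Of the 8 fibroblast markers, edgeR and limma-voom called 1 lower in males, Lum, and DESeq2 called 3, Col1a1, Lum and Tcf21. Of 8 smooth muscle and pericyte markers, edgeR called Acta2 lower and Rgs5 higher in males, and 5 had an unadjusted p below 0.05. Of 5 ventricular markers, 0 were called by edgeR, DESeq2 or limma-voom, 3 had an unadjusted edgeR p below 0.05, and the median log2 fold change was -0.13. The summed nerve and Schwann cell markers were 11.8 to 13.8 CPM in males and 14.2 to 14.995 CPM in females, where 1 of the 6 tested, Prph, was called lower and Chat was at 5 counts over all libraries. The part of these cells in the difference was not tested. In RNA of bulk tissue, fewer cells of a type and less RNA per cell cannot be told apart.

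Kcnq1 encodes the pore of the slow delayed rectifier, and its difference did not pass the test. It lies on the plus strand of chromosome 7 (143106362 to 143427042), and was at 49.2, 48.4, 51.3 and 46.1 CPM in male replicates 1 to 4, against 50.5, 52.5, 55.7 and 52.4 CPM in female replicates 1 to 4. The groups overlapped through male replicate 3, which exceeded female replicate 1. The log2 fold change was -0.12 (SE 0.04, 95% interval -0.21 to -0.02, edgeR adjusted p = 0.172). The interval is for the gene taken alone and was not adjusted for the number of genes. Kcnq1 shares 121 of its 4093 exon bases with the antisense transcript Kcnq1ot1, a long noncoding RNA that silences the neighbouring imprinted genes on the paternal chromosome. Since the strand setting of the counting is not given, reads of that stretch cannot be assigned to either gene with certainty. Kcnq1ot1 itself was at 9.19 ± 1.18 CPM in males and 9.48 ± 0.673 CPM in females (SD, n = 4 each, log2 fold change -0.05, edgeR adjusted p = 0.84).

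Within each library, the level of Kcne1 was also set against that of its pore partner, per kilobase of exon. The ratio of Kcne1 to Kcnq1 was 0.257, 0.252, 0.210 and 0.223 in male replicates 1 to 4, against 0.393, 0.464, 0.404 and 0.313 in female replicates 1 to 4, with no overlap. The log2 ratio was lower in males by a difference of -0.73 (two-sided exact permutation over the 8 libraries, p = 0.0286, which is the lowest value 4 against 4 can reach). Adjusted over the 4 ratios examined, the exact p was 0.0571 and did not pass the threshold. With a library left out it ran from 0.0381, without female replicate 3, to 0.114, without male replicate 3. The unadjusted exact p without female replicate 3 was the same 0.0286, so that lower adjusted value came from another ratio reaching the lowest p and not from a larger difference here.

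Kcnh2 encodes the pore of the rapid delayed rectifier, the channel blocked by many drugs that prolong the QT interval. It lies on the minus strand of chromosome 5 (24319589 to 24351604) and was measured with 4704 to 5806 counts per library. Its level was 133, 129, 125 and 127 CPM in male replicates 1 to 4, against 142, 156, 156 and 141 CPM in female replicates 1 to 4. The male libraries lay close together and below all female ones, where replicates 2 and 3 were the highest. The means were 128 ± 3.14 CPM in males and 149 ± 8.54 CPM in females (SD, n = 4 each), and the log2 fold change was -0.21 (SE 0.04, 95% interval -0.31 to -0.12, edgeR adjusted p = 0.0221). By size it ranked 258 among the 284 genes called lower in males, whose median was -0.43. The edgeR call was lost without male replicate 3 (adjusted p = 0.0733), female replicate 2 (0.0613) or female replicate 3 (0.0602), with log2 fold changes of -0.20, -0.19 and -0.19, and held in the other 5 fits with a library left out. The adipocyte, fibroblast and nerve marker sums given for Kcne1 were lower in males as well, and their part in the Kcnh2 difference was not tested.

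**Figure D2:**
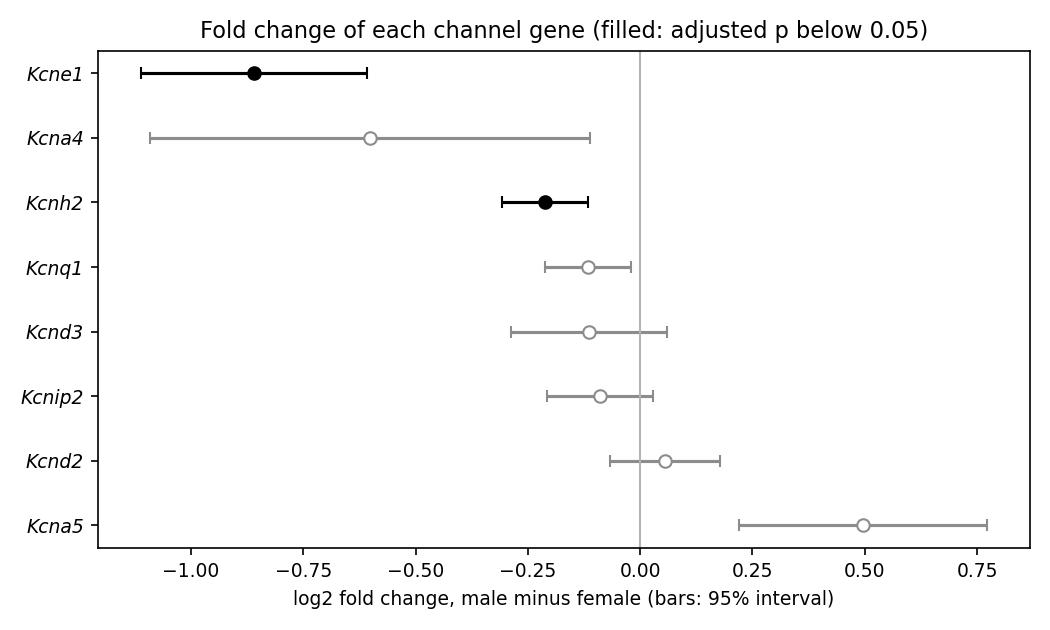
Log2 fold change (male minus female, horizontal axis) of each gene, ordered from the most negative at the top, with bars for the 95% interval of each gene taken alone and filled points for adjusted p below 0.05. Kcne1 (-0.86) and Kcnh2 (-0.21) are filled, and Kcna5 (0.50) stands alone at the positive end.

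Of the 3 genes of the fast transient outward current, 0 were called by edgeR, DESeq2 or limma-voom, and 0 had an unadjusted edgeR p below 0.05. Kcnip2 encodes the calcium-binding partner that brings Kcnd2 and Kcnd3 pores to the membrane and shapes their gating, and it had the highest CPM of the 8 genes. Kcnip2 (minus strand of chromosome 19, 45791839 to 45816061) was at 232, 208, 205 and 243 CPM in male replicates 1 to 4, against 243, 232, 232 and 236 CPM in female replicates 1 to 4. Male replicates 1, 2 and 3 lay below all female libraries, replicate 1 by a slight margin, while male replicate 4 was the second highest of all, and the coefficient of variation was 8.31% in males and 2.28% in females. The log2 fold change was -0.09 (SE 0.05, 95% interval -0.21 to 0.03, edgeR adjusted p = 0.397).

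Kcnd2 encodes the Kv4.2 pore, the main pore of the fast transient current in rodent ventricle. It lies on the plus strand of chromosome 6 (21215503 to 21729805) and was at 33.1, 29.9, 29.98 and 32.97 CPM in male replicates 1 to 4, against 27.5, 31.0, 31.9 and 30.8 CPM in female replicates 1 to 4. Male replicates 1 and 4 were the highest libraries and female replicate 1 the lowest, with the others interleaved, and the log2 fold change was 0.05 (SE 0.06, 95% interval -0.07 to 0.18, edgeR adjusted p = 0.647). Kcnd3, which encodes the Kv4.3 pore (plus strand of chromosome 3, 105452330 to 105674002), was at 18.5, 21.4, 22.01 and 24.6 CPM in male replicates 1 to 4, against 24.7, 24.2, 23.3 and 21.4 CPM in female replicates 1 to 4. Male replicate 1 was the lowest library and male replicate 4 lay beside the highest female one. Its log2 fold change was -0.11 (SE 0.08, 95% interval -0.29 to 0.06, edgeR adjusted p = 0.474). Kcnd3 shares 165 of its 9587 exon bases with the antisense gene Kcnd3os, so reads there carry the same doubt as those of Kcnq1.

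Ratios among the fast current's genes within a library did not pass the test with all libraries. The ratio of Kcnip2 to Kcnd2 per kilobase of exon was 10.4, 10.3, 10.1 and 10.9 in male replicates 1 to 4, against 13.1, 11.1, 10.8 and 11.4 in female replicates 1 to 4. Male replicate 4 overlapped female replicate 3, and the log2 difference was -0.15 (exact two-sided permutation test, p = 0.0571, adjusted over the 4 ratios 0.0762). With a library left out the adjusted exact p ran from 0.0381, without female replicate 3 (difference -0.18), to 0.19, without male replicate 3, and without female replicate 1 the difference was -0.087 (adjusted exact p = 0.114). The ratio of Kcnd2 to Kcnd3 was 3.34, 2.60, 2.53 and 2.49 in male replicates 1 to 4, against 2.07, 2.39, 2.55 and 2.67 in female replicates 1 to 4. These ranges overlapped, with a log2 difference of 0.17 (exact two-sided permutation test, p = 0.286, adjusted over the 4 ratios 0.286). Without male replicate 1, the highest library, the difference was 0.077 (adjusted exact p = 0.571).

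Kcna5 encodes the Kv1.5 pore of an ultrarapid, slowly inactivating current. It lies on the minus strand of chromosome 6 (126532551 to 126535412) with 1 stretch of exon, and was at 42.2, 43.5, 43.4 and 42.6 CPM in male replicates 1 to 4, against 28.9, 21.6, 38.5 and 32.7 CPM in female replicates 1 to 4. All male libraries lay above all female ones, and the male libraries were nearly alike where the female ones differed widely. The coefficient of variation was 1.48% in males and 23.3% in females, where counting error alone gives about 2.35% and 3.12%. The means were 42.9 ± 0.636 CPM in males and 30.4 ± 7.08 CPM in females (SD, n = 4 each), and the log2 fold change was 0.50 (SE 0.13, 95% interval 0.22 to 0.77, edgeR adjusted p = 0.0539). This is just above the threshold, and 5.86% of all genes tested had a larger change in either direction. The edgeR test passed without female replicate 2 (log2 fold change 0.36, adjusted p = 0.0404) and without female replicate 3 (0.63, adjusted p = 0.0169), and missed in the other 6 fits with a library left out, up to 0.118. With limma-voom on all libraries it passed (adjusted p = 0.0427), and with DESeq2 it did not (adjusted p = 0.0516). Of 8 skeletal muscle markers, 5 were tested and 1, Acta1, was called higher in males by edgeR and limma-voom, while DESeq2 called 2, Acta1 and Ckm. Of the 5 tested, 4 had a positive log2 fold change, and Tnnt3 had a negative one (-0.71, edgeR adjusted p = 0.154). Myh4, Myh2 and Myh1 were not tested, with 42, 14 and 9 counts over all libraries. The summed level of the 8 markers was 3492 to 3835 CPM in males and 2858 to 3319 CPM in females. Most of it was Ckm, which heart muscle also expresses, and the part of these markers in the Kcna5 difference was not tested. Of the 8 macrophage and leukocyte markers, 7 had a positive log2 fold change, the median was 0.27, and Cd163 was called higher in males by edgeR, DESeq2 and limma-voom. Without male replicate 1, the library where their sum was highest, the log2 fold change of Kcna5 was 0.50 (edgeR adjusted p = 0.0769).

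Kcna4 encodes the Kv1.4 pore of the slow transient current, which in mouse ventricle is found mainly in the septum. It lies on the plus strand of chromosome 2 (107290639 to 107298502) and was the scarcest of the 8 genes, with 30 to 61 counts per male library and 57 to 73 per female library. Its level was 1.41, 1.55, 1.15 and 0.655 CPM in male replicates 1 to 4, against 1.81, 2.002, 1.57 and 1.79 CPM in female replicates 1 to 4. The groups did not overlap, but male replicate 2 and female replicate 3 lay less than the worth of 1 count apart. The log2 fold change was -0.60 (SE 0.22, 95% interval -1.09 to -0.11, edgeR adjusted p = 0.167). Male replicate 4, the library with few atrial transcripts, was the lowest, and without it the log2 fold change was -0.39 (edgeR adjusted p = 0.225). The part of atrial tissue in the Kcna4 values was not tested.

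The ratio of Kcna4 to Kcna5 per kilobase of exon joined the opposite signs of these genes. It was 0.0198, 0.0211, 0.0157 and 0.0091 in male replicates 1 to 4, against 0.0371, 0.0549, 0.0242 and 0.0324 in female replicates 1 to 4. The groups did not overlap, and the log2 difference was -1.19 (exact two-sided permutation test, p = 0.0286, the lowest possible, adjusted over the 4 ratios 0.0571). Since Kcna4 was lower and Kcna5 higher in every male library than in any female one, this ratio could not overlap. Its exact p was thus set by those ranges and is no further evidence. Without male replicate 4 the difference was -0.93 (adjusted exact p = 0.0762), and over all 8 fits with a library left out the adjusted exact p ran from 0.0381, without female replicate 3, to 0.114, without male replicate 3. Without female replicate 3 the unadjusted exact p was again 0.0286.

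Levels of different genes were compared per kilobase of summed exon length, which counts every annotated exon and so understates a gene with long exons that the heart does not use. On this scale Kcnip2 stood first, at 63.8 ± 5.30 CPM per kb in males and 67.9 ± 1.55 in females (SD, n = 4 each). Kcnh2 followed at 26.5 ± 0.649 CPM per kb in males and 30.7 ± 1.76 in females. Kcna5 (15.003 ± 0.222 CPM per kb in males and 10.6 ± 2.47 in females) and Kcnq1 (11.9 ± 0.531 in males and 12.9 ± 0.529 in females) came next and overlapped over the 8 libraries. Kcna5 was above Kcnq1 in 4 of 4 male libraries and in 0 of 4 female libraries. Kcnd2 was at 6.11 ± 0.349 CPM per kb in males and 5.88 ± 0.377 in females, Kcne1 at 2.80 ± 0.279 in males and 5.08 ± 0.848 in females, and Kcnd3 at 2.25 ± 0.263 in males and 2.44 ± 0.149 in females. The ranges of Kcnd2 and Kcne1 overlapped over all libraries, though Kcnd2 exceeded Kcne1 in each of the 8. Those of Kcne1 and Kcnd3 overlapped as well, with Kcne1 above in 7 of 8. Kcna4 came last at 0.246 ± 0.0813 CPM per kb in males and 0.371 ± 0.0365 in females, apart from Kcnd3 in every library.

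**Figure D3:**
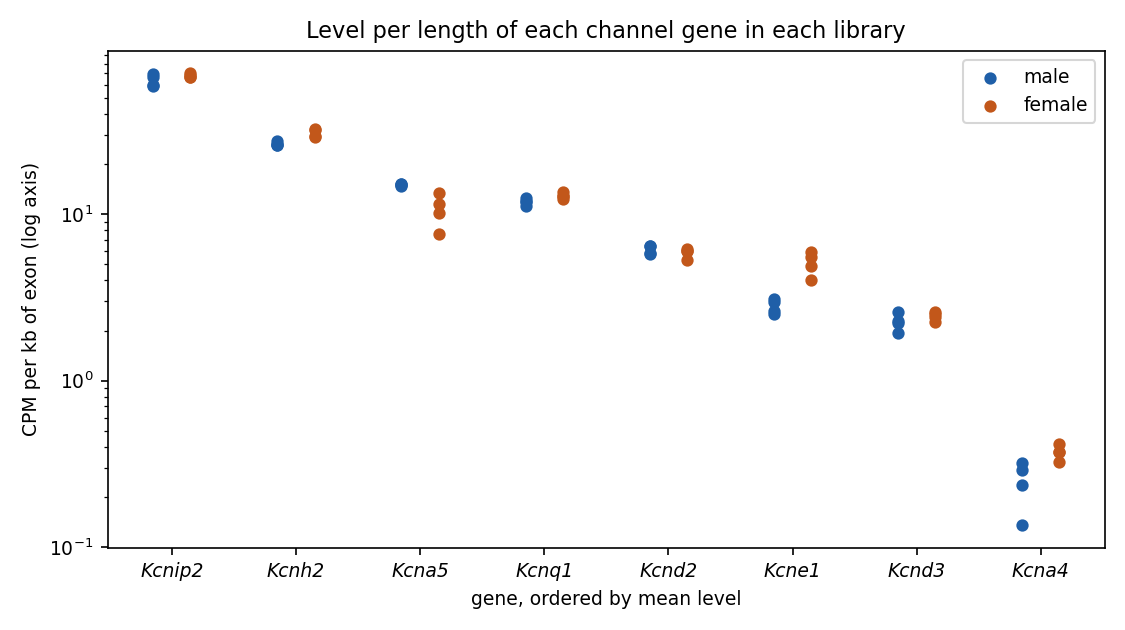
CPM per kilobase of exon (log axis) of each gene in every library, genes ordered by mean level, males in blue left of females in orange. Kcnip2 lies highest, between 58.95 and 70.01 CPM per kb, and Kcna4 lowest, between 0.135 and 0.414, while Kcna5 lies above Kcnq1 in the 4 male libraries and below it in the 4 female libraries.

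No library was extreme in the same direction for all genes. Male replicate 4 was the lowest of the 8 libraries in Kcne1, Kcnq1 and Kcna4, but the second highest in Kcnd2, Kcnd3 and Kcnip2. Female replicate 2 was the highest in Kcne1 and Kcna4 and the lowest in Kcna5. Female replicate 3 was the highest in Kcnh2 and Kcnq1.

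Genes whose pattern over the 8 libraries was most like that of the called genes were sought among 11624 genes, by the root-mean-square distance between log2 CPM values centred on each gene's mean. For Kcne1 these were Negr1, a neuronal cell adhesion gene (distance 0.14), Acaca, which encodes acetyl-CoA carboxylase of fatty acid synthesis (0.15), and Ptger4, a prostaglandin E receptor gene (0.15). Their log2 fold changes were -0.66, -0.71 and -0.72. For Kcnh2 they were Mettl21a, a methyltransferase gene (0.02), Ntn1, which encodes the guidance cue netrin 1 (0.03), and the cyclin gene Ccnj (0.04), with log2 fold changes of -0.21, -0.24 and -0.22. Likeness here includes the shared difference between the sexes and says nothing on control.

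The wider family of Kv genes was set beside these. Of 29 other pore-forming Kv genes listed, 15 were tested and 0 were called in either direction by edgeR, DESeq2 or limma-voom, with 4 at an unadjusted edgeR p below 0.05 and a median log2 fold change of -0.09. The gene with the smallest p was Kcnq5, an M-type channel gene, at 0.341 ± 0.114 CPM in males and 0.694 ± 0.227 CPM in females (SD, n = 4 each, log2 fold change -1.02, edgeR adjusted p = 0.0956). Among the most abundant per kilobase was Kcng2, an electrically silent modifier subunit, at 183 ± 10.1 CPM in males and 178 ± 3.77 CPM in females. Kcna7 was at 10.8 ± 0.587 CPM in males and 9.94 ± 0.618 CPM in females. The log2 fold changes of Kcng2 and Kcna7 were 0.04 and 0.12, with 95% intervals of -0.05 to 0.13 and -0.03 to 0.27.

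Of 11 other accessory Kv genes, 8 were tested and 0 were called by edgeR, DESeq2 or limma-voom, with 1 at an unadjusted edgeR p below 0.05 and a median log2 fold change of 0.02. That gene, Kcnip1, had 104 counts in all (log2 fold change -0.83, edgeR adjusted p = 0.186). Kcne4, an inhibitory relative of Kcne1, was at 2.92 ± 0.188 CPM in males and 2.89 ± 0.387 CPM in females (log2 fold change 0.02, 95% interval -0.24 to 0.27). Kcnip3 (0.34, edgeR adjusted p = 0.322) and Kcnab2 (0.33, 0.439) were the other members among the 3 most abundant per kilobase. Kcne2, a partner of KCNH2 in human studies, had 6 counts over all libraries and was not tested; it is named here after its values were seen.

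**Figure D4:**
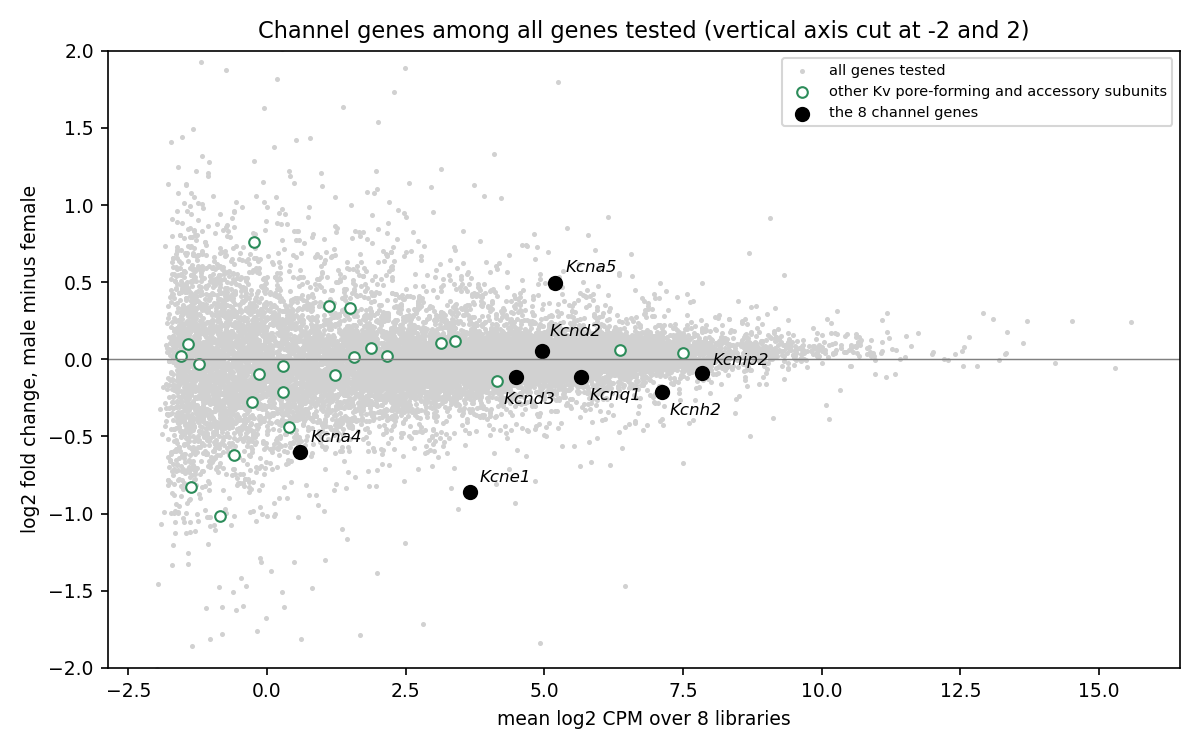
Log2 fold change (male minus female, vertical axis, cut at -2 and 2) against mean log2 CPM over the 8 libraries for all genes tested (grey), other Kv pore-forming and accessory genes (open green) and the 8 channel genes (black). Kcne1 at -0.86 and Kcna5 at 0.50 stand at the rim of the grey cloud at their level, and the other black points lie nearer 0, apart from the scarce Kcna4.

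**Figure D5:**
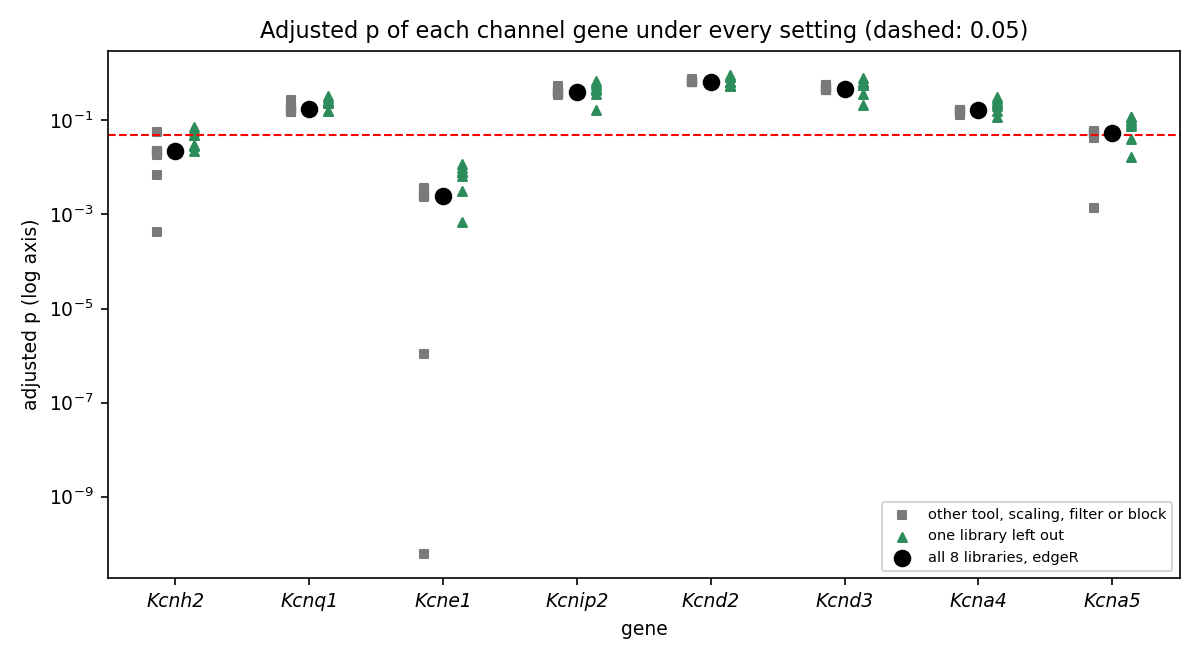
Adjusted p (log axis) of each gene with all libraries in edgeR (black), under other tools, scalings, filters or the replicate block (grey squares) and with 1 library left out (green triangles), with a dashed line at 0.05. Kcne1 lies below the line in all settings drawn, Kcnh2 and Kcna5 straddle it, and the other 5 genes lie above it.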

How the data were processed

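RNA of dissected hearts was extracted with Trizol and made into TruSeq libraries, per the labels' protocols. The authors deposited raw counts per gene; the submitters' processing notes name Trimmomatic 0.36, STAR 2.5.2b, featureCounts, Subread 1.5.2 and GRCm38 (mm10). The annotation version and strand setting are not given in the sources used here. Deposited single-sample tables held the same counts with exon coordinates and length. The deposited normalized signal is the count divided by a size factor per library (0.863 to 1.196 from the values): 100% of its values came out whole within 0.01, and edgeR on those reads, an alternative chosen after seeing the data, called 613 genes. Symbols matched 48970 of 49315 genes.

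Genes were filtered (filterByExpr, minimum count 10, total 15), scaled by TMM and tested by sex over 8 libraries in edgeR 4.0.16 (R 4.3.3), Benjamini-Hochberg threshold 0.05. Each SE was obtained by dividing the size of the log2 fold change by the root of F. Log2 CPM used a prior count of 2. Gene-pair ratios were tested by exact permutation.

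Members and lists were chosen with earlier results of these data known. Named genes are the members, in each list the called genes or that with the smallest p, the 3 most abundant per kb of each channel list, and the 3 genes most like each called member. Some genes that this rule names are not reported here. Alternatives used DESeq2 1.42.0, limma 3.58.1, other scalings and filters, a replicate block and each library left out.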

Additional observations from a re-analysis of the deposited data

Results flagged for a closer look

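The ratio of Kcnd2 to Kcnd3 per kilobase in male replicate 1 was 3.34, while the other 3 male libraries lay between 2.49 and 2.60. Its gap to the nearest male library exceeded Dixon's 95% critical value for 4 samples. Without male replicate 1, the log2 difference of this ratio between males and females was 0.077, beside 0.17 with all libraries. The summed macrophage and leukocyte markers in male replicate 1 were 533 CPM, while the other 3 male libraries lay between 284 and 313 CPM, a gap that also exceeded the critical value. These were 2 such values among 48 groups examined, where chance gives about 1 in 20.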

How the results depend on the processing

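Over the 17 alternatives, no log2 fold change of the 8 genes turned its sign, and 128 of 136 values kept their side of the threshold. Kcne1 was called in all 17 (adjusted p from 6.1e-11 to 0.0117). Kcnh2 lost its call in 4 and Kcna5 gained one in 4, among them the test with no filter on low counts (adjusted p = 0.00136); the cause was not tested. With a library left out, 1 to 2 of the 8 genes and 315 to 490 of all genes were called, the count being 315 on leaving out male replicate 3, 354 on leaving out female replicate 2 and 379 on leaving out female replicate 3. DESeq2 called 964 genes. With the replicate number as a block, 1 of the 8 genes (Kcne1) and 427 of all genes were called, and the edgeR adjusted p of Kcnh2 was 0.0566. Over all genes tested, deviations from the own-sex mean were nearly uncorrelated between same-numbered libraries (r from -0.047 to 0.054). Whether such libraries shared a preparation that touched some genes was not tested. The exact sign-flip test of the ratios in pairs cannot go below p = 0.125. With a library left out, the log2 ratio differences ran from -0.84 to -0.65 (Kcne1 to Kcnq1), -0.18 to -0.087 (Kcnip2 to Kcnd2), 0.08 to 0.22 (Kcnd2 to Kcnd3) and -1.37 to -0.93 (Kcna4 to Kcna5). Their adjusted exact p ran from 0.0381 to 0.114, 0.0381 to 0.19, 0.2 to 0.6 and 0.0381 to 0.114 in that order. The values of 0.0381 were those without female replicate 3, where 3 ratios tied at the lowest p the test allows. At 30 to 73 counts per library, Kcna4 had a coefficient of variation of 33.0% in males and 9.83% in females, beside a counting error of 14.6% in males and 12.7% in females.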
